A study of Mus musculus with 90 samples.

Results

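Among mouse melanomas that shrank under blockade of PD-L1, the tumours differed in how much T cell RNA they held. The T cell rich and T cell poor members of this regressing group were compared here. The classes were chosen by a T cell score, taken for each array as the mean log2 level of 4 genes: Cd3g, part of the CD3 complex, Cd8b1, a chain of the CD8 coreceptor, Nkg7, a protein of cytotoxic granules, and Ccl5, a chemokine made by activated T cells and NK cells. Of 90 arrays, 27 were labelled Responder. Replicate 20 was set aside because it read 12.49 for Glycam1, a gene of lymph node vessels, against a limit of 8. Within each of 2 ranges of title numbers, called title series here, arrays above the median score were T cell rich and arrays below it T cell poor. This gave 8 rich against 8 poor arrays in the larger series and 4 against 4 in the smaller one, or 12 T cell rich against 12 T cell poor tumours. Replicates 8 and 26, the median arrays, were in neither class.

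The tumours were subcutaneous melanoma allografts of genotype Hgftg;Cdk4R24C/R24C, an Hgf transgene with a knock-in of the R24C form of Cdk4, in strain B6.cBrd; every group carried both alleles. Responder tumours came from mice given anti-PD-L1 (mouse IgG1 D265A, 10 mg/kg), had lost at least 5% of their volume, and were taken after 2 to 12 doses once they had regressed over 2 consecutive measurements. NonResponder tumours had the same antibody and kept growing until harvest at matched times. Control tumours had an isotype antibody, control IgG1 D265A. The labels give neither the age of the mice, nor the promoter of the transgene, nor what the title series stand for, and they do not say that arrays come from separate mice, so p-values measure the spread between these samples.

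Antibody against PD-L1 releases T cells that are held back through PD-1. CD8 T cells that recognise a tumour secrete interferon gamma, which switches on chemokines, antigen presentation and guanylate binding proteins in tumour cells and macrophages, and also PD-L1 itself. Macrophages take up dying cells and their lipids, and cells that are supplied with sterol normally lower the genes that make it, under the transcription factor SREBP2. All levels and differences below are on the log2 scale, and a difference is rich minus poor.

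Promoter sequence is shown for both pathways because their genes moved together and in opposite directions, as described further on. The windows were read from RefSeq (GRCm38.p6), and the 250 bases before each start were searched on both strands for GAAA followed after any 2 bases by another GAAA, the core of the interferon-stimulated response element (ISRE), and for TCACNCCAC, a form of the sterol regulatory element. The ISRE core was found in 9 of the 13 interferon gamma genes that had a window, against 3.46% of all 27025 genes with a window. The shares were 6.24% of the genes called higher in T cell rich tumours (55 of 881), 3.19% of those called lower (23 of 722) and 2.92% of tested genes that were not called. TCACNCCAC was found in 1 of 10 cholesterol synthesis genes, Hmgcs1, against 1.22% of all genes with a window. It was no more frequent among genes called lower (0.83%, 6 of 722) than among those called higher (1.14%, 10 of 881) or not called (1.30%). A match is a description of letters and not a measured site. In the stretches below, each of 100 bases in the direction of the gene, capitals mark the matches, and overlapping matches form 1 run.
Gbp2b (chr3:142594690-142594789, + strand): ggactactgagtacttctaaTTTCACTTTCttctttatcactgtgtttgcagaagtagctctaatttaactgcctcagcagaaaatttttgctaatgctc
Gbp3 (chr3:142559944-142560043, + strand): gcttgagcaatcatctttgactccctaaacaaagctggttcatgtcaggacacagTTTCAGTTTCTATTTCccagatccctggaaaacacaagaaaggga
Igtp (chr11:58199456-58199555, + strand): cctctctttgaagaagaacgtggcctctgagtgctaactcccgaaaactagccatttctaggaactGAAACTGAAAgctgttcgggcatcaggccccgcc
Irgm2 (chr11:58214877-58214976, + strand): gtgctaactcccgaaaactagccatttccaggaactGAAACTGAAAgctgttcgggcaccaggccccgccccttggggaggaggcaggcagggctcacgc
Socs1 (chr16:10785540-10785639, - strand): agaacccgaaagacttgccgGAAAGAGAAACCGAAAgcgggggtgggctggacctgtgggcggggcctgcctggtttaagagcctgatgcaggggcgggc
Hmgcs1 (chr13:119690194-119690293, + strand): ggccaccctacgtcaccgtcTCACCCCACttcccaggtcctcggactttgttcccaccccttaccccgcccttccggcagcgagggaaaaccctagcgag

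The score defined the classes, so its values are a description. T cell rich Responder tumours scored 8.80 at the lowest, 9.88 at the median and 10.7 at the highest, and T cell poor Responder tumours 6.72, 7.89 and 9.45. The means were 9.93 ± 0.53 in rich and 8.10 ± 0.82 in poor tumours (SD, n = 12 each), a difference of 1.82. The ranges overlap only because the series were divided separately: the lowest rich and highest poor array scored 8.80 (replicate 11) and 8.70 (replicate 16) in the larger series, and 9.60 (replicate 24) and 9.45 (replicate 25) in the smaller one. The rich minus poor gap came to 2.09 for the larger series and 1.29 for the smaller. NonResponder and control IgG tumours divided in the same way scored lower. T cell rich NonResponder tumours (n = 10) ran between 7.60 and 8.39 and poor ones (n = 10) between 5.86 and 7.14, a difference of 1.37. T cell rich control IgG tumours (n = 11) ran between 7.07 and 8.42 and poor ones (n = 11) between 6.20 and 7.02, a difference of 1.18. The median T cell poor Responder score of 7.89 thus lay close to the median T cell rich scores of NonResponder (7.98) and control IgG tumours (7.87).

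**Figure D1:**
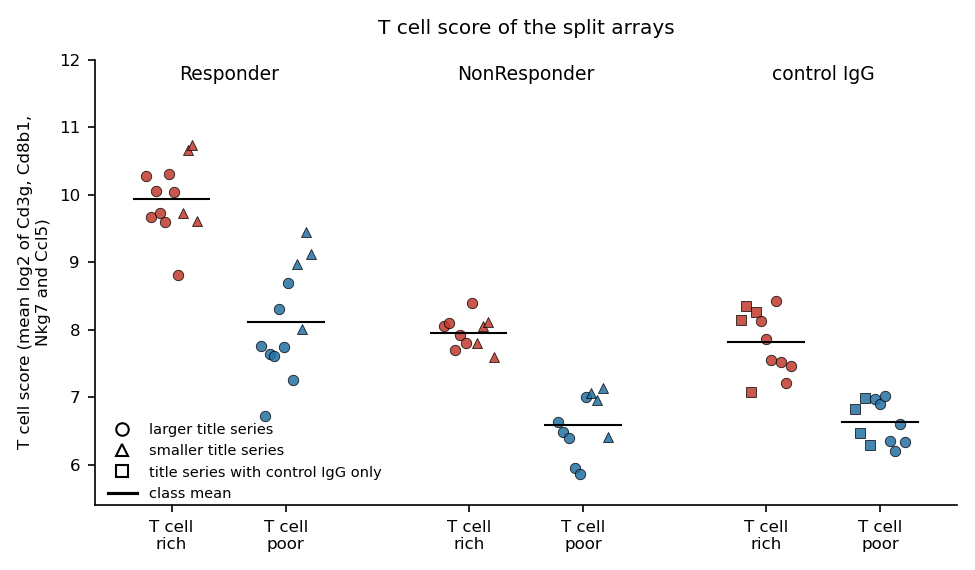
T cell score (mean log2 level of Cd3g, Cd8b1, Nkg7 and Ccl5) of each array used, by group, class and title series; each point is 1 array and each line a class mean. Rich Responder tumours averaged 9.93 and poor ones 8.10, against 7.95 and 6.59 in NonResponder and 7.82 and 6.63 in control IgG tumours.

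Other T cell genes followed the score. They are given with no test, here and between groups, because they come from the same cells as the score. Cd8a, the other chain of the CD8 coreceptor, read 6.99 at the lowest, 8.15 at the median and 8.93 at the highest in T cell rich tumours, against 5.82, 6.41 and 7.69 in poor ones. Cd27, a costimulatory receptor, lay between 5.20 and 6.71 in rich and between 3.90 and 5.16 in poor tumours, with no overlap. Differences were 1.15 for Cd3d, 1.13 for Cd3e, 1.29 for Cd2 and 1.47 for Cd5, pan T cell surface proteins, and 0.26 for Cd4. Cd8a differed by 1.58. The score holds Cd8b1, the partner chain of Cd8a, so a wider gap in Cd8a than in Cd4 was built into the division. Effector genes differed by 1.95 for Gzmb and 1.26 for Prf1, the granule killers, and by 1.62 for Ifng, the interferon gamma gene. Of the inhibitory receptors, Pdcd1 (PD-1) read 6.33, 7.39 and 9.34 at the lowest, median and highest in rich tumours, against 5.10, 5.77 and 7.31 in poor ones, and differed by 1.47. Lag3 differed by 1.17, Havcr2 (TIM-3) by 1.25 and Ctla4 by 0.83. Foxp3, the factor that defines regulatory T cells, differed by -0.21, and the 10 genes of the regulatory T cell list by a median of 0.14. In whole tumour RNA, fewer cells of a type and less RNA per cell cannot be told apart.

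The fit ran over all genes with limma, with the title series as a term. Genes outside the T cell and NK cell lists are called higher or lower at a Benjamini-Hochberg adjusted p under 0.05 over all 18193 genes. Since arrays were divided by a measured score, each p speaks of how far a gene moved with that score in these tumours and not of an applied treatment. Of all genes tested, 2002 (11%) passed between T cell rich and T cell poor Responder tumours, 1118 (6.15%) higher and 884 (4.86%) lower. These include the 4 score genes, which were bound to differ, and 49 members of the T cell and NK cell lists. Without both, 1949 genes were called, 1065 higher and 884 lower, and 275 of them were more than 2-fold higher against 14 more than 2-fold lower. Over the whole table, centring each array on its median turned the balance round, to 1014 higher and 2423 lower. In 1984 of the 2002 genes both title series had the same sign. The calls came from the 2 series pooled, so this agreement was partly built in and is no replication. Of all 18193 genes, 5218 had a positive and 8047 a negative difference in both series. On its own the larger series called 1176 genes (6.46%), 804 higher (4.42%) and 372 lower (2.04%). The smaller series called 0 in limma's test, with 1579 at an unadjusted p under 0.05 and a smallest adjusted p of 0.54. No gene's difference was called as unlike between the series by limma, with 659 at an unadjusted p under 0.05.

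Some arrays stand apart. Replicate 21 (rich, smaller series) had the lowest mean correlation with the other arrays (0.883), a skeletal muscle list level of 13 and a melanocyte list level of 6.69. Replicate 4 (rich, larger series) had the next lowest correlation among the divided arrays (0.95). Without both, 1261 genes were called, 398 of them lower; 1178 of the 2002 calls were kept and all 2002 had the same sign. Muscle list levels above 10 were also seen in replicate 22 (rich, 10.8) and replicate 14 (poor, 11.7). The 12 rich tumours ran between 5.07 and 13 for that list (median 5.54) and the 12 poor tumours between 5.38 and 11.7 (median 5.57), with 0 of its 14 members called. The classes were not alike in each series. Median muscle levels were 9.85 in rich and 5.65 in poor tumours of the smaller series, and 5.38 and 5.57 in the larger. The median difference of the list was 3.40 in the smaller and -0.39 in the larger series. The difference between 3' and 5' Gapdh probe sets, a mark of RNA length, averaged -0.05 in rich and -0.07 in poor tumours. It was highest in replicate 19 (poor, 0.81) and replicate 21 (rich, 0.49). Without both, an alternative chosen after seeing the data, 1229 genes were called higher and 1212 lower. Glycam1 lay between 4.27 and 4.62 in rich and between 4.20 and 4.98 in poor tumours.

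**Figure D2:**
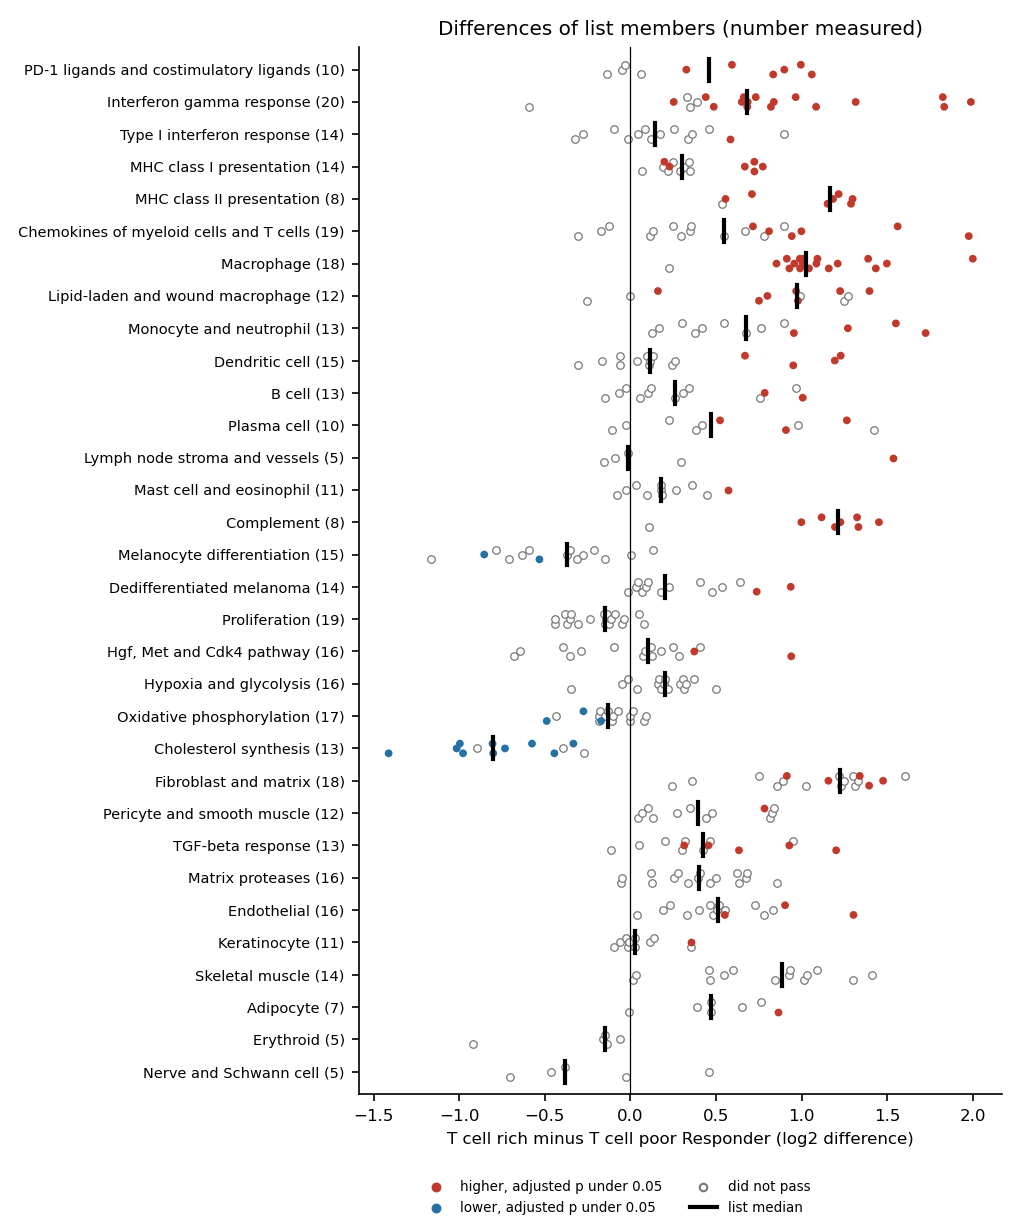
Difference in log2 level, T cell rich minus T cell poor Responder tumours, of every measured member of the gene lists outside T cells and NK cells; each point is 1 gene, filled where called at an adjusted p under 0.05, and each bar is a list median. Macrophage, complement and MHC class II members lie to the right of 0 and all 13 cholesterol synthesis members to the left.

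Macrophage genes were higher in T cell rich regressing tumours almost without exception. Of 18 measured members of the macrophage list, 17 rose and 0 fell, where 6.15% of all genes were higher. The median difference was 1.03 against -0.03 over all genes, and the list medians were 1.31 in the larger and 0.62 in the smaller series. The mean level of the list was 9.60 at the lowest, 10.3 at the median and 11.5 at the highest in rich tumours, against 7.90, 9.26 and 10.4 in poor ones. Cd68, a lysosomal membrane protein of macrophages, read 10.1, 10.7 and 12.1 at the lowest, median and highest in rich tumours, against 8.53, 9.57 and 10.6 in poor ones. The ranges overlap, with 8 of the 12 rich tumours above every poor one; the difference was 1.43 ± 0.23 (SE; adjusted p = 0.000545). Slamf8, a surface receptor of activated phagocytes, read 7.41, 9.03 and 10.6 in rich against 4.97, 6.91 and 8.99 in poor tumours. It was 4.00-fold higher (2.00 ± 0.30, adjusted p = 0.000359), and 6 rich tumours lay above all poor ones. The complement receptor chain Itgam rose by 1.39, the growth factor receptor Csf1r by 1.50, the resident macrophage antigen Adgre1 by 1.21, and the complement subunit C1qc by 1.09. The lipid sensing receptor Trem2 rose by 0.85 and the scavenger receptor Msr1 by 0.93. Cd14, a receptor for bacterial lipopolysaccharide, was the member that did not pass (0.23, adjusted p = 0.69).

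Cd5l, a secreted protein that macrophages make and that inhibits their apoptosis, had the largest rise of any gene named by the rule. It read 7.97 at the lowest, 9.60 at the median and 10.8 at the highest in T cell rich tumours, against 5.54, 7.20 and 9.53 in poor ones. In 7 of 12 rich tumours it lay above every poor one. The difference was 2.31 ± 0.42, or 4.95-fold (adjusted p = 0.00137), with 2.80 in the larger and 1.32 in the smaller series. It was 0.35 (adjusted p = 0.999) between rich and poor NonResponder tumours and 0.32 (adjusted p = 0.761) between rich and poor control IgG tumours. The differences between these differences were not called (adjusted p = 0.116 against NonResponder and 0.156 against control IgG).

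Further genes of myeloid cells stood among the 10 largest rises. Acod1, which makes the antimicrobial metabolite itaconate, read 6.63, 8.83 and 10.2 at the lowest, median and highest in rich tumours, against 5.49, 6.67 and 9.11 in poor ones (2.00 ± 0.34, adjusted p = 0.000717). Pla2g7, which degrades platelet activating factor, read 9.26, 10.3 and 11.9 in rich against 6.55, 8.01 and 10.1 in poor tumours (1.96 ± 0.31, adjusted p = 0.000449). Hk3, a hexokinase of myeloid cells, read 7.82, 9.43 and 11 in rich against 6.42, 7.92 and 9.05 in poor tumours (1.79 ± 0.28, adjusted p = 0.000449). In each of the 3 the ranges overlap, with 3, 8 and 9 rich tumours above all poor ones for Acod1, Pla2g7 and Hk3. Bst1, an ectoenzyme that consumes NAD, rose by 1.76 (adjusted p = 0.000423). Cxcl12, a chemokine of stromal cells, had the widest spread: 8.27, 10.2 and 11.8 in rich against 4.13, 7.96 and 10.5 in poor tumours (1.98 ± 0.53, adjusted p = 0.0189).

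The lipid-laden and wound macrophage list rose in part, with 7 of 12 members higher, 0 lower and a median of 0.97. Among all genes 6.15% were higher. Lpl, lipoprotein lipase, which frees fatty acids from lipoproteins, read 11.5 at the lowest, 12.5 at the median and 13.6 at the highest in rich tumours, against 9.94, 11.4 and 12.7 in poor ones (1.23 ± 0.25, adjusted p = 0.00322). The fatty acid receptor Cd36 rose by 1.40, the heme degrading enzyme Hmox1 by 0.98, the cholesterol carrier Apoe by 0.80 and the lipid droplet coat protein Plin2 by 0.75. Arg1, arginase, differed by 1.25 and did not pass (adjusted p = 0.07), and Gpnmb, made by macrophages and by melanoma cells, had a difference of 0.00 and did not pass. Without replicate 4 the count was 4 of 12 (median 0.78) and without replicates 4 and 21 it was 3 (median 0.60). Plin2 differed by -0.23 in NonResponder and -0.13 in control IgG tumours, neither of which passed.

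Of 13 monocyte and neutrophil genes 4 were higher and 0 lower, with a median of 0.68, where 6.15% of all genes were higher. Clec4e, which senses mycobacterial lipid and dead cells, read 6.95, 8.40 and 10.5 at the lowest, median and highest in rich tumours, against 5.60, 6.65 and 8.59 in poor ones (1.72, adjusted p = 0.00198). Ccr2, the receptor that draws monocytes out of marrow, rose by 1.27, and Csf3r, the granulocyte growth factor receptor, by 0.96, with 9 rich tumours above all poor ones for Csf3r. Of 19 chemokines 6 were higher and 0 lower (median 0.55), among them Ccl8 (1.56), Cxcl16 (0.81), Ccl6 (1.0) and the monocyte attractant Ccl2 (0.72). Neutrophil attractants did not pass: Cxcl1 differed by -0.17 and Cxcl5 by 0.67. Complement genes rose in 7 of 8 members, with 0 lower and a median of 1.21 (1.49 in the larger and 0.71 in the smaller series). Cfp, properdin, which stabilises the alternative pathway convertase, read 9.04, 9.84 and 11 in rich against 7.45, 8.57 and 9.71 in poor tumours (1.33 ± 0.23, adjusted p = 0.000798). The C1 inhibitor Serping1 rose by 1.32, factor B, Cfb, by 1.20 and the C1 protease C1ra by 1.12.

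Genes switched on by interferon gamma were higher in T cell rich tumours: 16 of 20 measured members rose and 0 fell, where 6.15% of all genes were higher. The median difference was 0.68. The list averaged 9.76 at the lowest, 10.4 at the median and 10.6 at the highest in rich tumours, against 8.81, 9.50 and 10.4 in poor ones. Its median came to 0.93 for the larger series and 0.26 for the smaller. Guanylate binding proteins, GTPases that attack vacuoles of microbes, led the list. Gbp2b read 7.20, 9.24 and 10.4 at the lowest, median and highest in rich tumours, against 5.02, 6.66 and 9.94 in poor ones (1.99 ± 0.37, adjusted p = 0.00134). Gbp8 read 7.23, 8.87 and 9.75 in rich against 4.53, 6.72 and 8.74 in poor tumours (1.83 ± 0.28, adjusted p = 0.000399). Members of the Gbp and Irgm families are close copies, so a probe set may detect more than 1 of them. Of the genes whose promoters are shown above, Socs1, a feedback inhibitor of cytokine receptors, rose by 0.82, the immunity related GTPases Igtp and Irgm2 by 0.68 and 0.49, and Gbp3 did not pass (0.35, adjusted p = 0.072).

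Ubd, a ubiquitin-like modifier, read 8.77 at the lowest, 10.5 at the median and 12.1 at the highest in rich tumours, against 6.25, 8.41 and 11.1 in poor ones (1.83 ± 0.33, adjusted p = 0.00118). Cxcl9, which draws T cells through Cxcr3, read 11.4, 11.9 and 13.2 in rich against 9.30, 10.6 and 11.9 in poor tumours, with 8 rich tumours above all poor ones (1.32 ± 0.24, adjusted p = 0.00128). The transcription factors Irf1 and Irf8 rose by 0.68 and 1.08, and Ido1, which degrades tryptophan, by 0.97. Cxcl11, another Cxcr3 ligand, did not pass (-0.59, adjusted p = 0.15). In the type I interferon list 1 of 14 members rose, Mx1 (0.58, adjusted p = 0.0491), and 0 fell. The list median was 0.14, and over all genes 6.15% were higher. Mx1 did not pass when any of 16 of the 24 arrays was left out (adjusted p = 0.082 without replicate 4 and at most 0.0889), and the list had 0 to 3 calls as single arrays were left out. Of its 10 genes with a promoter window, 5 held the ISRE core, so the letters were present in both interferon lists.

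**Figure D3:**
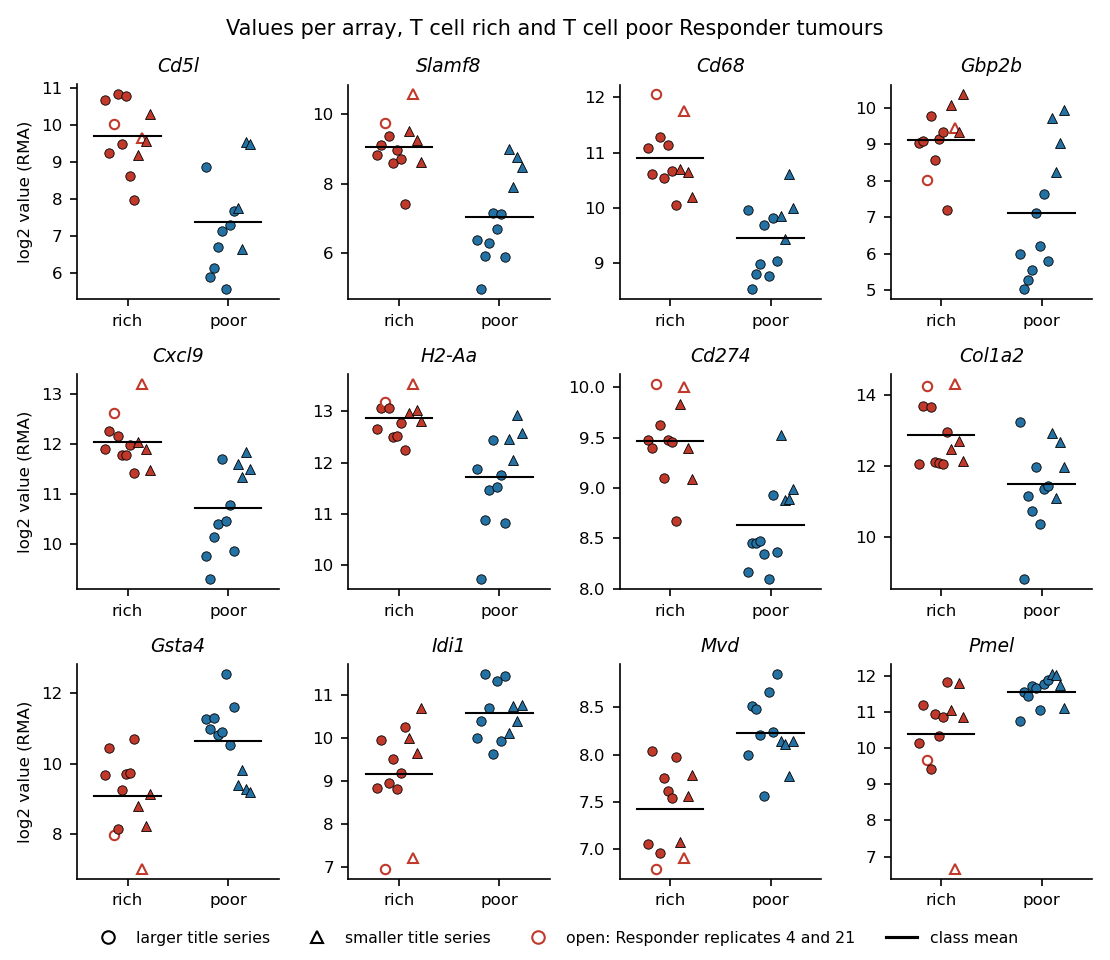
Log2 level of 12 selected genes in each of the 24 divided Responder tumours, T cell rich left of T cell poor; each marker is 1 array, its shape gives the title series, open markers are replicates 4 and 21, and lines are class means. Cd5l, Slamf8 and Cxcl9 lie higher in rich tumours and Gsta4, Idi1 and Mvd lower, and the classes overlap in each gene shown.

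Class II antigen presentation rose with the score in 7 of 8 genes (0 lower), where 6.15% of all genes were higher. The median was 1.17 (1.43 in the larger and 0.62 in the smaller series). Cd74, the invariant chain that chaperones class II, read 12.3 at the lowest, 13 at the median and 13.7 at the highest in rich tumours, against 9.64, 11.9 and 12.8 in poor ones. In 10 of the 12 rich tumours it lay above every poor one (1.30 ± 0.27, adjusted p = 0.00321). H2-Aa, a class II chain, read 12.3, 12.9 and 13.5 in rich against 9.72, 11.8 and 12.9 in poor tumours (1.15 ± 0.23, adjusted p = 0.00231). The peptide loading chain H2-DMa rose by 1.22 and Ciita, the activator of class II genes, by 0.66. In class I presentation 6 of 14 genes were higher and 0 lower, with a median of 0.30. The peptide transporter subunit Tap1 rose by 0.72 and the loading proteins Tapbp and Tapbpl by 0.72 and 0.77. The class I heavy chains H2-K1 and H2-D1 rose by 0.23 and 0.20, and the shared light chain B2m did not pass (0.07, adjusted p = 0.36).

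The ligands of PD-1 stood higher in T cell rich tumours too. Cd274, the gene of PD-L1, which the antibody binds, read 8.68 at the lowest, 9.46 at the median and 10.0 at the highest in rich tumours, against 8.09, 8.47 and 9.53 in poor ones. The ranges overlap, with 4 rich tumours above all poor ones, and the difference was 0.83 ± 0.14, or 1.78-fold (adjusted p = 0.000636; 1.0 in the larger and 0.51 in the smaller series). It was 0.42 between rich and poor NonResponder tumours (adjusted p = 0.18) and 0.23 in control IgG tumours (adjusted p = 0.382). Pdcd1lg2, the gene of PD-L2, rose by 1.06 (adjusted p = 0.000978), with rich tumours between 5.22 and 7.88 and poor tumours between 4.55 and 7.21. Vsir, the inhibitory ligand VISTA, rose by 1.0 and the costimulatory receptor Cd40 by 0.59. Of the 10 ligands listed 6 rose and 0 fell (median 0.46), where 6.15% of all genes were higher.

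Cholesterol synthesis was the list with the most members lower in T cell rich tumours: 10 of 13 fell and 0 rose. Over all genes 4.86% were lower, and the list median was -0.80. All 13 differences were negative in both title series, with medians of -0.94 in the larger and -0.50 in the smaller. The list averaged 7.36 at the lowest, 8.66 at the median and 9.18 at the highest in rich tumours, against 8.80, 9.24 and 9.73 in poor ones. Mvd, which makes isopentenyl pyrophosphate, read 6.78, 7.55 and 8.04 in rich against 7.56, 8.18 and 8.86 in poor tumours, with 9 poor tumours above every rich one (-0.81 ± 0.16, adjusted p = 0.00204). Fdft1, squalene synthase, the first step committed to sterol, read 7.38, 8.92 and 9.80 in rich against 9.17, 9.91 and 10.4 in poor tumours (-1.02 ± 0.21, adjusted p = 0.0036). Idi1, which isomerises isopentenyl pyrophosphate, read 6.94, 9.35 and 10.7 in rich against 9.63, 10.5 and 11.5 in poor tumours (-1.41 ± 0.36, adjusted p = 0.015). The ranges of each overlap.

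Later steps fell as well. Cyp51, lanosterol demethylase, read 6.54 at the lowest, 8.53 at the median and 9.18 at the highest in rich tumours, against 8.85, 9.23 and 9.84 in poor ones (-1.0 ± 0.24, adjusted p = 0.0114). Insig1, the sterol sensing retention protein of the SREBP pathway, read 7.46, 8.18 and 9.0 in rich against 8.28, 8.98 and 9.66 in poor tumours (-0.80 ± 0.19, adjusted p = 0.01). Squalene epoxidase, Sqle, differed by -0.98, and Hmgcs1, whose promoter is shown above, by -0.44 (adjusted p = 0.038). Fdps (-0.90, adjusted p = 0.071), Dhcr7 (-0.40, adjusted p = 0.053) and Srebf2, the gene of SREBP2 (-0.27, adjusted p = 0.15), did not pass. Without replicate 4 or without replicate 21 the list kept 7 calls, without both it kept 6 (median -0.57), and without the 3 arrays with muscle transcripts it had 11.

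In the groups that did not regress, T cell rich and poor tumours lay close together in the same list. In NonResponder tumours it averaged between 9.11 and 9.49 in T cell rich and between 8.98 and 9.65 in T cell poor ones, and its median difference was 0.02. In control IgG tumours it lay between 8.75 and 9.52 in rich and between 8.82 and 9.53 in poor ones, with a median of -0.01. No member was called in the test of Responder against NonResponder differences or of Responder against control IgG differences. Because the score gap was wider among Responder tumours, slopes per unit of score were also taken: the median slope was -0.44 in Responder, -0.03 in NonResponder and -0.06 in control IgG tumours, and the smallest adjusted p of a Responder minus NonResponder slope difference was 0.0673. A difference between the groups in this list was thus not called.

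**Figure D4:**
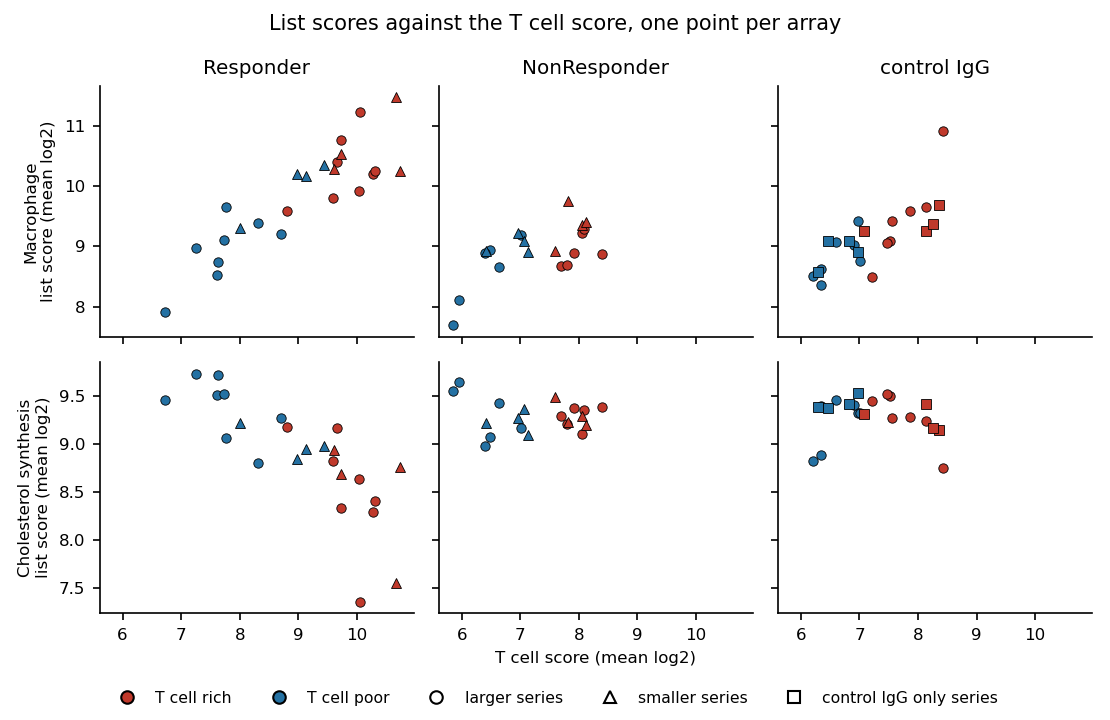
Mean log2 level of the macrophage and cholesterol synthesis lists against the T cell score, 1 point per array, by group, class (colour) and title series (shape). Cholesterol synthesis levels lie between 7.36 and 9.18 in T cell rich Responder tumours and between 8.75 and 9.52 in T cell rich control IgG tumours, at lower scores.

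Other large falls belonged to no single list. Gsta4, a glutathione transferase for lipid aldehydes, had the largest fall named by the rule: it read 7.02 at the lowest, 9.21 at the median and 10.7 at the highest in rich tumours, against 9.19, 10.9 and 12.5 in poor ones. In 7 poor tumours it lay above every rich one (-1.56 ± 0.30, adjusted p = 0.00196; -1.78 in the larger and -1.13 in the smaller series). Azgp1, a secreted lipid mobilising protein, read 5.70, 6.47 and 8.02 in rich against 6.70, 8.15 and 9.30 in poor tumours (-1.45 ± 0.25, adjusted p = 0.000913). Further falls were Pramel34 (-1.29), Csrnp3 (-1.14), Gsta2, a second glutathione transferase (-1.10), Tph2, a tryptophan hydroxylase (-1.08), Fxyd3, a regulator of the sodium pump (-1.08), Spink8 (-1.05) and the anion exchanger Slc26a7 (-1.05). Without replicate 4, Gsta2, Tph2 and Slc26a7 no longer passed. For Pramel34 the larger series gave -1.88 and the smaller -0.12.

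Pigment cell genes gave few calls. Of 15 melanocyte differentiation genes 2 fell and 0 rose, where 4.86% of all genes were lower. The median was -0.37 (-0.21 in the larger and -1.10 in the smaller series). The list lay at 6.69 in replicate 21 and at 9.46 at the median of the rich tumours, and between 9.51 and 9.87 in all poor ones. Pmel, a melanosome matrix protein, read 6.65, 10.9 and 11.8 at the lowest, median and highest in rich against 10.7, 11.7 and 12.1 in poor tumours and did not pass (-1.16 ± 0.41, adjusted p = 0.063). Gpr143, a melanosomal receptor, and Rab27a, which moves melanosomes, fell by 0.85 and 0.53. Pmel passed without replicate 21 (-0.80, adjusted p = 0.0322), without replicate 11, 22 or 24 (-1.22 to -1.31, adjusted p at most 0.0426) and without the 3 arrays with muscle transcripts (-0.87, adjusted p = 0.0304). As single arrays were left out the list had 0 (without replicate 4) to 4 genes lower, and without replicates 4 and 21 it had 0 with a median of -0.16.

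The drivers built into the model did not pass. Hgf differed by -0.64 (adjusted p = 0.308), its receptor Met by -0.39 (adjusted p = 0.334) and Cdk4 by -0.35 (adjusted p = 0.104). In rich tumours the lowest values, all in replicate 21, were 5.63 for Hgf, 9.05 for Met and 9.54 for Cdk4, against medians of 11.6, 12.6 and 11.1. Without replicate 21 the differences were -0.20 for Hgf, -0.11 for Met and -0.22 for Cdk4, and none passed; Cdk4 passed without replicate 24 (-0.41, adjusted p = 0.0401). Cdk6, a kinase related to Cdk4, was among 2 of 16 genes of this pathway list that rose (0.94, adjusted p = 0.0031), beside Spint2, an inhibitor of Hgf activation (0.37). Proliferation genes gave 0 calls among 19 in limma's test, with a median of -0.15. That median was -0.03 without replicate 21, which lay at 8.31 for this list against 10.07 in the next array, and 0.03 without replicates 4 and 21. Mki67, a marker of cycling cells, differed by 0.08 (adjusted p = 0.771). The receptor kinase Axl and the transcription factor Jun, of the list for dedifferentiated melanoma, rose by 0.74 and 0.94, as 2 of 14 members, where 6.15% of all genes were higher.

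Matrix genes leaned upward in T cell rich tumours, yet most did not pass. All 18 fibroblast and matrix members had positive differences in both series, with a median of 1.22. Of them 5 were called higher and 0 lower, where 6.15% of all genes were higher. Col1a2, a chain of type I collagen, read 12.0 at the lowest, 12.6 at the median and 14.3 at the highest in rich tumours, against 8.80, 11.4 and 13.2 in poor ones (1.39 ± 0.41, adjusted p = 0.0305). Col1a1, its partner chain, differed by 1.60 and did not pass (adjusted p = 0.061). The list was at 12.57 in replicate 21, which also carried the muscle transcripts, against 10.35 in the next rich tumour of the smaller series. Without replicate 4 it had 0 calls (median 1.0), without replicate 21 it had 2 (1.03) and without the 3 arrays with muscle transcripts 0 (1.10). Its median was -0.10 in NonResponder and 0.60 in control IgG tumours, whose score gaps were narrower. Per unit of T cell score the list median was 0.63 in Responder, 0.12 in NonResponder and 0.66 in control IgG tumours.

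The NonResponder and control IgG tumours place these values. T cell rich NonResponder tumours differed from poor ones in 72 genes (0.396%), 67 of them higher (0.368%) and 5 lower (0.0275%). Control IgG tumours differed in 289 genes (1.59%), 230 higher (1.26%) and 59 lower (0.324%). Interferon gamma genes had medians of 0.68 in Responder, 0.64 in NonResponder and 0.84 in control IgG tumours. Class II genes had 1.17, 1.14 and 1.24 in the same order. Per unit of T cell score, to allow for the unequal score gaps, the interferon gamma medians were 0.37 in Responder, 0.45 in NonResponder and 0.66 in control IgG tumours, with 5 of 20 members called as unlike between Responder and control IgG. The class II medians were 0.67, 0.98 and 1.09 per unit of score, with 0 of 8 called in either test of slopes (smallest adjusted p = 0.15). Ubd differed by 1.83 in Responder, 2.40 in NonResponder (adjusted p = 0.00109) and 1.97 in control IgG tumours (adjusted p = 0.00311), and Cxcl9 by 1.32, 1.34 (adjusted p = 0.0153) and 1.62 (adjusted p = 0.000552). Macrophage genes had medians of 1.03, 0.27 and 0.60, lipid-laden macrophage genes 0.97, 0.14 and 0.11, and complement genes 1.21, 0.44 and 0.71. Per unit of T cell score the macrophage medians were 0.60 in Responder, 0.30 in NonResponder and 0.62 in control IgG tumours. In the same order the complement medians were 0.66, 0.41 and 0.70 per unit, and the lipid-laden macrophage medians 0.49, 0.14 and 0.11. No member of any list outside T cells and NK cells was called in either test of a difference between groups that compares the classes.

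**Figure D5:**
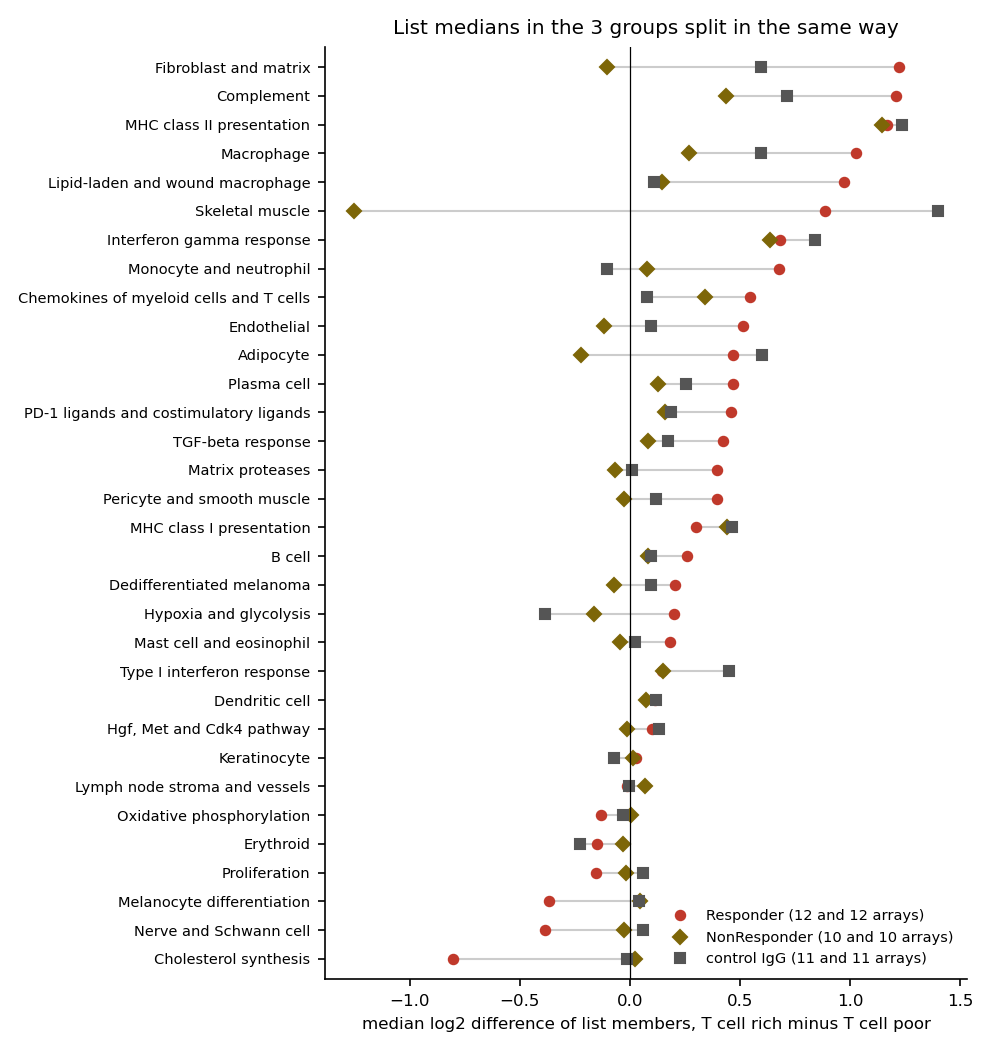
Median difference in log2 level, T cell rich minus T cell poor, of each gene list in Responder, NonResponder and control IgG tumours. The score gap between classes was 1.82, 1.37 and 1.18 in the 3 groups, so medians are not per unit of score. Interferon gamma medians were 0.68, 0.64 and 0.84 (0.37, 0.45 and 0.66 per unit of score), and cholesterol synthesis is at -0.80 in Responder, 0.02 in NonResponder and -0.01 in control IgG tumours.

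The test of Responder minus NonResponder differences called 10 genes (0.055%), 9 higher (0.0495%) and 1 lower (0.0055%). That of Responder minus control IgG differences called 22 genes (0.121%), 18 higher (0.0989%) and 4 lower (0.022%). T cell and NK list members made up 4 of the 10 and 7 of the 22, and are given without a test: Cd5 differed by 1.47 in Responder and 0.24 in NonResponder tumours, Cd28 by 1.29 and 0.26, and Lag3 by 1.17 and 0.14, at score gaps of 1.82 and 1.37. Among the 6 genes called outside these lists, the transcription factor Tcf24 had the largest gap from NonResponder tumours. It differed by -0.57 in Responder and 0.32 in NonResponder tumours (gap -0.90, adjusted p = 0.0181). Genes that were not called could have wider gaps, such as Gm829 (-1.07, adjusted p = 0.0663). Tcf24 was dim, with means of 5.49 in rich and 6.06 in poor Responder tumours. With dim genes (mean under 6) left out the test called 0 lower. The other 5 calls outside the lists were higher. Their gaps were 0.857 for Parvg (adjusted p = 0.0181), 0.850 for Gfi1 (0.0216), 0.870 for Itgb7 (0.0408), 0.853 for Ccdc88b (0.0478) and 0.895 for Galnt6 (0.0478). Being outside the lists does not show that a gene is not made by T cells, and the source of these 5 was not tested.

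Among the genes called against control IgG, Ptgs2, the inducible cyclooxygenase, had the widest gap. Its difference was 0.99 in Responder tumours (adjusted p = 0.0954) and -1.38 in control IgG tumours (adjusted p = 0.0557), neither of which passed (gap 2.37, adjusted p = 0.0484). Pgf, placental growth factor, differed by 0.28 and -0.93 (gap 1.22, adjusted p = 0.0264), and Gm829 by -1.15 and 0.01 (gap -1.16, adjusted p = 0.0311). As slopes per unit of score the gap of Pgf passed (adjusted p = 0.0071), and those of Ptgs2 (adjusted p = 0.198) and Gm829 (adjusted p = 0.143) did not.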

How the data were processed

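Tumour RNA from 90 samples was measured on Affymetrix mouse arrays, 1 array per sample. The deposited log2 values were normalized by the authors with RMA, per the submitters' processing notes, which also name limma; versions and which arrays were normalized together are not given in the sources used here. Values ran from 2.19 to 14.8, and precision is limited by the number of arrays.

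Of 45101 probe sets, 64 control sets, 932 with several symbols and 9160 not listed in the annotation were left out of gene results. Each of 18193 genes was read from its brightest probe set, by mean level across arrays (a choice for 9010). Classes follow the score rule; control IgG arrays were divided within the larger series and a series that held that group alone. Differences come from limma 3.58.1 in R 4.3.3 (lmFit, eBayes, title series as a term), two-sided. For differences between groups the fit held a mean per group and title series and a rich minus poor term per group. Within and between title series it held a mean per class and series. Named genes are the 10 largest rises and 10 largest falls among calls with the same sign in both series (without score genes, T cell and NK list genes, receptor segments and unnamed transcripts), up to 4 members of smallest p per list, 7 genes given throughout and the 4 largest called gaps between groups; other list members are named as examples. The 37 lists held 543 genes, 492 measured; the others were not analysed here. Members and lists were chosen with earlier results of these data known. On simulated data, with 200 genes of 18193 changed, the fit recovered 82.4, 95.5 and 98.5% of changes of 0.5, 1 and 2 log2 units, with 7 false calls. Recovery on the tumour arrays, whose classes were cut from measured values, was not tested. There, genes lower in T cell rich Responder tumours numbered 387 to 2154 as single arrays were left out. Promoter windows came from RefSeq (GRCm38.p6). Alternatives covered probe set choice, dim genes, scaling, the division and single arrays.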

Additional observations from a re-analysis of the deposited data

Results flagged for a closer look

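In 30 of 228 sets of 4 or 8 arrays examined (13.2%, where chance gives about 1 in 20), 1 array lay far from the other arrays of its class and title series; the nearest array's value is given after each. Replicate 21, T cell rich in the smaller series, was low for the melanocyte list (6.69, next 9.47), the proliferation list (8.31, next 10.07), Csrnp3 (2.55, next 5.08) and Gsta2 (3.78, next 7.77). The same array was high for the fibroblast list (12.57, next 10.35), pericytes (9.71, next 7.96), dedifferentiated melanoma (8.01, next 6.86), the TGF-beta response (9.66, next 8.16), endothelium (8.75, next 7.13), Pla2g7 (11.91, next 10.52) and Gbp8 (9.75, next 8.94). Its muscle list level was 13 and its mean correlation with other arrays 0.883.

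Replicate 4, T cell rich in the larger series, was low for proliferation (9.50, next 9.96), Idi1 (6.94, next 8.80), Csrnp3 (4.48, next 5.79) and Spink8 (5.15, next 6.28), and high for the TGF-beta response (9.33, next 8.62) and matrix proteases (9.44, next 8.35). Replicate 11, the rich array just above the dividing score of the larger series, was low for the cytotoxic list (6.54, next 7.11), Ubd (8.77, next 10.12) and Hk3 (7.82, next 9.12). Muscle transcripts were high in replicate 6 (rich, 8.92, next 6.66), replicate 14 (poor, 11.73, next 5.92) and replicate 25 (poor, 9.23, next 5.77).

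Among the other T cell poor arrays, replicate 9 was low for the chemokine list (6.30, next 6.91) and Gbp8 (4.53, next 5.98), and replicate 23 for the B cell list (5.24, next 5.66). Replicate 2 was high for mast cells and eosinophils (4.87, next 4.73), replicate 15 for Azgp1 (9.30, next 8.38), replicate 19 for Acod1 (9.11, next 7.66) and replicate 27 for Fxyd3 (9.22, next 8.79). The part of these arrays in the results was not tested beyond leaving each out.

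Some rich minus poor differences of genes outside the T cell and NK cell lists were unlike between groups in limma's test of the difference. Against NonResponder tumours Tcf24 gave -0.90 (adjusted p = 0.0181), and with dim genes left out that test called 0 lower. Against control IgG tumours the Responder difference was larger by 2.37 for Ptgs2 (adjusted p = 0.0484) and 1.22 for Pgf (adjusted p = 0.0264), while Gm829 gave -1.16 (adjusted p = 0.0311). The score gap itself was 1.82 in Responder, 1.37 in NonResponder and 1.18 in control IgG tumours. As slopes per unit of score Tcf24 (adjusted p = 0.0306) and Pgf (adjusted p = 0.0071) passed, and Ptgs2 (adjusted p = 0.198) and Gm829 (adjusted p = 0.143) did not.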

How the results depend on the processing

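Directions held throughout for the 2002 called genes, with 1 exception under the mean of all probe sets (2001 of 2002); counts moved with the settings. Genes higher in T cell rich Responder tumours numbered 1118, against 1987 with narrower classes (the 5 highest against the 5 lowest scores of the larger series and 3 against 3 of the smaller) and 2166 as a slope on the score. Genes lower numbered 884, against 2423 with arrays centred on their median (29.5% of calls higher, median of all genes -0.10), 2593 with those classes, 2863 as a slope, 553 with no title series term, 1554 with all 90 arrays in the fit, 1586 with the Gapdh 3' minus 5' difference as a covariate, 398 without replicates 4 and 21, and 543 without the 3 arrays with muscle transcripts, the last 2 alternatives, and the slopes between groups, being chosen after seeing the data. Leaving out 1 array in turn gave 849 to 1748 higher and 387 (without replicate 4) to 2154 (without replicate 24) lower, and 0 in both directions within the smaller series. In the larger series genes lower numbered 372, and 902 with centring. The Responder minus NonResponder test called 9 higher and 1 lower, against 16 and 4 with the mean of probe sets, 2 and 0 with dim genes left out, 16 and 2 with centring, and 17 and 3 as slopes. The Responder minus control IgG test called 18 higher and 4 lower, against 7 and 12 as slopes, and 2 lower with quantile normalization. As slopes, 5 interferon gamma members and 1 MHC class I member were called in that test, and 1 monocyte and neutrophil member in the NonResponder one; other lists outside T cells and NK cells had 0. Counts over all genes include T cell genes.

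A reversed sign was seen for Glycam1, at 0.54 with the array high in it kept against -0.09, and for Mki67, which lay between -0.00841 (without replicate 15) and 0.173 (without replicate 21) as single arrays were left out, and up to 0.257 under other alternatives, against 0.08; neither passed in any case and the cause was not tested. Over the arrays left out in turn, the lists called 16 to 17 macrophage, 7 complement, 13 to 18 interferon gamma, 6 to 8 MHC class II, 6 to 12 cholesterol, 3 to 8 lipid-laden macrophage and 0 to 10 fibroblast genes. Of 93 named genes past the threshold, 16 did not pass without replicate 4, 5 without replicate 21 and 17 without both, with signs kept. Dividing the arrays by Cd3d, Cd3e, Cd2 and Cd5 in place of the score genes kept 1654 of the 2002 calls. No paired analysis was possible because the labels give no replicate numbers. The number of arrays limits the precision, above all in the smaller series with 4 against 4.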

Other observations

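Some genes of B lineage cells were higher, where 6.15% of all genes were. Of 10 plasma cell genes 3 were higher in T cell rich Responder tumours and 0 lower (median 0.47), among them Prdm1, a factor of plasma cells and of effector T cells (1.26, adjusted p = 0.00257), and Pou2af1, a B cell coactivator (0.91), which did not pass without replicate 4 (adjusted p = 0.0671). Of 13 B cell genes 2 were higher and 0 lower (median 0.26), Cd22, an inhibitory receptor of B cells (1.01, adjusted p = 0.00488), and the scaffold Bank1 (0.78), which did not pass without replicate 4, 5, 12 or 23 (adjusted p = 0.0519 to 0.0572). Ltb, lymphotoxin beta, which lymphocytes use to shape lymphoid stroma, read 7.98 at the lowest, 9.06 at the median and 10.1 at the highest in rich tumours, against 6.09, 7.61 and 9.0 in poor ones (1.54, adjusted p = 0.000383). In 7 rich tumours it lay above every poor one. Ltb was the single call among 5 genes of the lymph node list (median -0.01), and Glycam1 differed by -0.09. T cells are lymphocytes too, so the rise of Ltb cannot be told apart from the division by T cell score.

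Vessel genes had positive differences in all 16 endothelial members and in both title series (median 0.51). Of these members 3 were called higher and 0 lower, where 6.15% of all genes were higher. The 3 were the adhesion molecules Icam1 (0.55, adjusted p = 0.00111), Pecam1 (0.90) and Vcam1 (1.30, adjusted p = 0.025). Vcam1 did not pass without replicates 4 and 21 (adjusted p = 0.0735). The list was at 8.75 in replicate 21 against 7.13 in the next array, and its median was 0.39 without replicate 21. In the TGF-beta list 5 of 13 were higher and 0 lower (median 0.42), with Tgfbi, a matrix protein induced by TGF-beta, at 1.20 and the growth factor gene Tgfb1 at 0.93. Without replicate 21 the list median was 0.26, with 5 higher, and without replicates 4 and 21 it was 0.21, with 4. Oxidative phosphorylation genes were lower in 3 of 17, with 0 higher and a median of -0.13, where 4.86% of all genes were lower. Ndufa4 read between 11.9 and 13.4 in rich tumours and between 13 and 13.9 in poor ones (-0.49, adjusted p = 0.0207). Without the 3 arrays with muscle transcripts none of the 17 was called in limma's test.

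The remaining lists gave few or no calls. Dendritic cells had 4 of 15 higher, mast cells and eosinophils 1 of 11, pericytes 1 of 12, keratinocytes 1 of 11 and adipocytes 1 of 7, with 0 lower in each, against 6.15% of all genes higher. As single arrays were left out these counts ran from 1 to 5, 0 to 3, 1 to 2, 0 to 1 and 1 to 2. Hypoxia and glycolysis (16 genes), matrix proteases (16), erythroid cells (5) and nerve and Schwann cells (5) had 0 in either direction. Medians without a test were 1.03 for 22 T cell receptor genes, 1.15 for 21 cytotoxic genes, 0.44 for 12 NK receptors and 0.87 for 10 inhibitory receptors.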
